A study of Mus musculus with 18 samples.

Results

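The transcripts of 10 genes that serve to store, polyadenylate and translate germ-cell messenger RNA were followed through 18 RNA sequencing libraries of Zfp541 mutant mice. They were taken by symbol, 10 of the 47216 gene symbols found once in every deposited table: the DAZ-family genes Dazl and Boll, the Y-box genes Ybx1, Ybx2 and Ybx3, the poly(A) polymerase genes Papola and Papolb, and the cytoplasmic poly(A)-binding protein genes Pabpc1, Pabpc2 and Pabpc4. All animals were C57BL/6J males. Knockouts (KO, Zfp541-/-) and heterozygotes (Het, Zfp541+/-) were each sampled 3 times as P14 testis, 3 times as P18 testis and 3 times as spermatocytes taken on day 18, which gave 6 groups, so the controls also carried 1 mutant allele and no wild type was included. The labels name neither the kind of mutation nor how the spermatocytes were isolated. The study's text speaks of biological replicates, but nothing says that each library came from a separate animal, and p-values measure only the spread between these libraries.

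Many germ-cell messenger RNAs are made days before they are translated in spermatids, so their storage and their poly(A) tails are controlled in the cytoplasm. Y-box proteins coat and store messenger RNA, DAZ-family proteins bind the 3′ untranslated region and recruit translation factors, poly(A) polymerases lengthen the tail, and poly(A)-binding proteins cover it and link it to the cap. In the mouse, Boll, Ybx2 (also known as MSY2), Papolb (also known as TPAP) and Pabpc2 are germ-cell genes, as is Dazl, whereas Ybx1, Papola, Pabpc1 and Pabpc4 are expressed in many tissues. Ybx3 is found in several tissues and in male germ cells.

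Levels below are RPKM (P14 testis and spermatocytes) or FPKM (P18 testis), reads or fragments per kilobase of gene and per megaread, rescaled within each set of 6 libraries, and means are given ± SD (n = 3 libraries). Differences are KO minus Het on the scale of log2(value + 0.5), which understates the change of low genes, ± SE, with adjusted p from limma over all genes of the comparison and a threshold of 0.05. The libraries held between 9.26 (spermatocytes) and 21.12 (P14) megareads, as read back from the steps of the low values. Zfp541 itself averaged 4.04 in KO and 8.66 in Het P14 testis (adjusted p = 0.0902), 10.3 in KO and 25.0 in Het P18 testis (adjusted p = 0.00411), and 12.2 in KO and 43.5 in Het spermatocytes (adjusted p = 0.000792). In spermatocytes the summed level of 8 Sertoli markers was 16.9 to 34.3 in KO and 24.4 to 42.1 in Het libraries, against 783 to 830 in KO and 588 to 735 in Het P18 testis, and 5 erythroid markers summed to at most 0.527. The 5 peritubular myoid markers were not depleted there, with sums of 55.3 to 191 in KO and 67.8 to 180 in Het spermatocytes. At P14 the gene lengths behind the values of Dazl and Pabpc1 differed from those at P18, so their P14 levels are compared only within P14.

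At P18 most of the 10 genes were lower in KO, in whole testis and in isolated spermatocytes alike. In P18 testis 7 of the 10 genes fell in KO and none rose, where 17% of all 18790 genes tested fell and 6.58% rose. In spermatocytes 7 of 10 fell and 2 rose, where 25.6% of 15904 genes fell and 9.32% rose. The same 7 genes fell in both: Boll, Ybx1, Ybx2, Ybx3, Papolb, Pabpc1 and Pabpc2, the last of which was tested in spermatocytes through its Het libraries alone. Dazl and Pabpc4 rose in spermatocytes, and Papola passed in neither. At P14 limma called none of the 9 genes tested, against 0.175% of 17701 genes lower and 0.0113% higher; 6 of the 9 had an unadjusted p under 0.05, a share that was 8.71% over all genes, and voom on the reads read back called Ybx3 lower. In P18 testis 8 of 10 had such a p, the eighth being Pabpc4, against 40.2% of all genes. Every KO library lay below every Het library for 5 of the 9 genes tested in P14 testis, and for 7 of 10 in P18 testis and 7 in spermatocytes, where 8.41%, 25.4% and 32.5% of the genes tested did so, and above for 1, 1 and 2, where 6.9%, 22.9% and 20% did. Over the genes tested the median difference was -0.23 in P14 testis, -0.97 in P18 testis and -1.17 in spermatocytes, beside 0.01, 0.04 and -0.05 over all genes. Because these are bulk libraries, fewer cells of a type and less RNA per cell cannot be told apart.

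**Figure D1:**
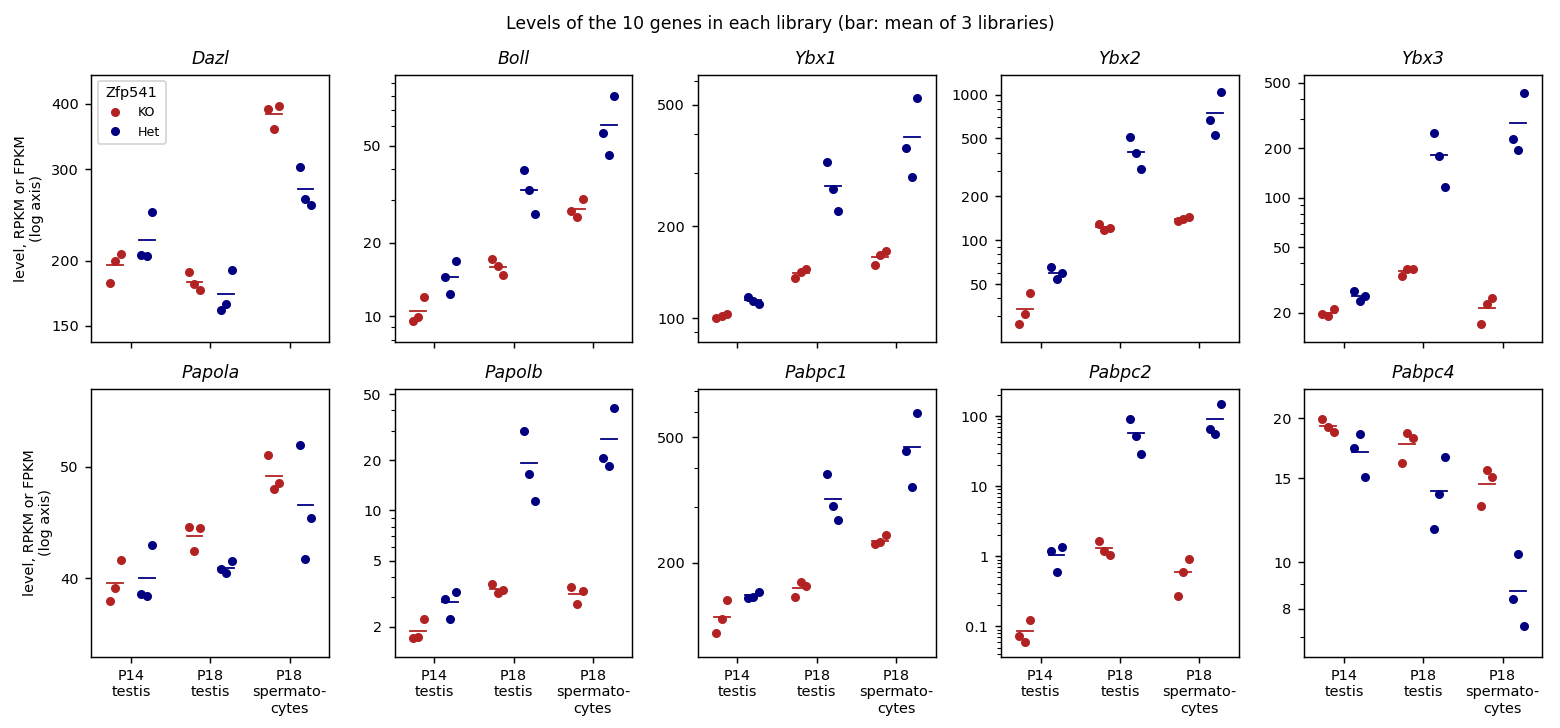
Level of each of the 10 genes in every library (points; bars are means of 3 libraries) in KO and Het P14 testis, P18 testis and P18 spermatocytes, on log axes in RPKM or FPKM. At P18 the KO points of Boll, Ybx1, Ybx2, Ybx3, Papolb, Pabpc1 and Pabpc2 all lie below the Het points; P14 points of Dazl and Pabpc1 rest on another gene length than their P18 points.

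The share of calls depended on the scaling more than the calls of these genes did. Of all genes called in spermatocytes 26.7% were higher in KO with the scaling used, 54.3% with the values as deposited and 50.9% with scaling over all 18 libraries, and in P18 testis 27.9% were higher, or 46.4% as deposited. As deposited the median difference of all genes in spermatocytes was 0.17, against -0.05 with the scaling used, and single genes shifted with it. No call of the 10 genes between KO and Het at P18 was lost under the alternatives run, except that Pabpc2 in spermatocytes was left untested whenever a Het library was left out. Some calls were gained. Papola was higher in KO spermatocytes as deposited (0.33, adjusted p = 0.0239) and in 1 fit over all 18 libraries (0.25, adjusted p = 0.0153). Pabpc4 was higher in KO P18 testis without Het replicate 3 (0.42, adjusted p = 0.0338).

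Markers of late spermatocytes moved with the genes that fell. The summed level of 8 markers of pachytene and later spermatocytes was 34.9 to 38.1 in KO and 163 to 385 in Het P18 testis, and 30.5 to 36.5 in KO and 353 to 759 in Het spermatocytes. At P14 it was 13.5 to 17.6 in KO and 26.9 to 37.0 in Het testis. Only 2 of the 8 were tested at P14, and 1 fell, where 0.175% of all genes did. The gene was Piwil1 (2.32 in KO and 13.5 in Het, limma, adjusted p = 0.0357). Mybl1 (11.9 in KO and 15.2 in Het) did not pass (limma, adjusted p = 0.547). The sums of 8 early meiotic markers overlapped between the genotypes in spermatocytes (914 to 1087 in KO and 887 to 1112 in Het), and in P18 testis (556 to 649 in KO and 628 to 709 in Het). They also overlapped in P14 testis (359 to 482 in KO and 462 to 582 in Het). Single early markers moved both ways at P18. In P18 testis Stra8 (0.43) and Prdm9 (0.31) rose, and Spo11 (-0.80) and Meioc (-0.31) fell. In spermatocytes Stra8 rose (0.55) and Spo11 fell (-1.45). The 8 spermatogonial markers summed to 402 to 477 in KO and 224 to 307 in Het spermatocytes, and to 227 to 254 in KO and 161 to 213 in Het P18 testis. The 6 macrophage markers were also higher in KO without overlap, with sums of 12.7 to 13.5 in KO and 6.16 to 11.5 in Het spermatocytes, and of 42.1 to 49.9 in KO and 28.6 to 35.2 in Het P18 testis. The part of these shifts in the results on the 10 genes was not tested. The Het libraries at P18 also differed among themselves: each of the 7 genes that fell was highest in replicate 1 and lowest in replicate 3 of Het P18 testis, where the late markers summed to 385 and 163, and highest in replicate 3 and lowest in replicate 2 of Het spermatocytes, where they summed to 759 and 353. Pabpc4 had the opposite order in both groups.

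Promoter sequences are shown for the 3 germ-cell genes Boll, Ybx2 and Papolb, which fell together at P18, and for Papola, the ubiquitous counterpart of Papolb, which did not pass. They come from the 250 bases before the RefSeq start (GRCm38.p6), 5′ to 3′ on the gene's strand. Bases inside the annotated gene are left out, which are the last 103 for Ybx2 and the last 3 for Papola. The stretches are Boll chr1:55363754-55364003 (minus strand), Ybx2 chr11:69935649-69935795 (plus), Papolb chr5:142530077-142530326 (minus) and Papola chr12:105784447-105784693 (plus). That of Boll ends upstream of the annotated gene, which begins at 55363469. Capitals mark AACNG (the core bound by MYB-family factors), TGACG (the core of the cyclic AMP response element), GTTGCC (part of the X-box) and CCAAT on either strand.
Boll: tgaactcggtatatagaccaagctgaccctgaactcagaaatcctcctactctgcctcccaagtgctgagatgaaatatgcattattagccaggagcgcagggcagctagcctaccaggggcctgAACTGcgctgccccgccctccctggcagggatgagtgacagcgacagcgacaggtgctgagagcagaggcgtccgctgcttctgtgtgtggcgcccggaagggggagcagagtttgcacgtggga
Ybx2: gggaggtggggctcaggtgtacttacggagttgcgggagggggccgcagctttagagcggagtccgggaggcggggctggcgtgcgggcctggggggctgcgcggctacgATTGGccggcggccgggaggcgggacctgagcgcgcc
Papolb: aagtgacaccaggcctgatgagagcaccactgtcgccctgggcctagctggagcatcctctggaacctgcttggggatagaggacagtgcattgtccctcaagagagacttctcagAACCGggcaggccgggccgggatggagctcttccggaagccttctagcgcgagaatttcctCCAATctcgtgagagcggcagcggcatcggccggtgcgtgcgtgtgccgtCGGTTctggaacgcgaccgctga
Papola: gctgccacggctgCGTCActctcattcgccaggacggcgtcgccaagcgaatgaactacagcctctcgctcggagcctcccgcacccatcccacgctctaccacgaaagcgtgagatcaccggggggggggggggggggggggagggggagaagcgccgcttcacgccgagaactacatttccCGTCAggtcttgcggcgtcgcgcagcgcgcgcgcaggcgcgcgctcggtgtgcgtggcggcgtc
AACNG stood once in the Boll stretch and at 2 places in that of Papolb. Counted over the full 250 bases before the start, it stood in 74.19% of all 32851 promoter windows. CCAAT, present in 33.85% of windows, was matched in the Ybx2 and Papolb stretches, and TGACG, in 17.77%, in that of Papola. The full 250 bases held 1 match more for Ybx2 and for Papola, 2 of CCAAT for Ybx2 and 3 of TGACG for Papola. None of the promoter windows of the 8 genes with an entry held the full response element TGACGTCA (1.546% of windows), and these matches are only letters in the window. Over the 250 bases before the start, G and C made up 59.2% for Boll, 77.2% for Ybx2 and 62% for Papolb. Ybx1 and Ybx3, which also fell, had 62.8% and 67.2%. Among the genes that did not fall, Papola had 70.4%, Dazl 67.2% and Pabpc4 58.8%, and the median over all promoters was 52.4%. Boll and Ybx2 each had another start further downstream, with 78% and 79.2%. There Boll held 1 match of CCAAT and none of AACNG, and Ybx2 held 1 of GTTGCC and none of CCAAT.

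Of the DAZ family, Boll fell at P18 and Dazl did not. Boll (chromosome 1, 55248658 to 55363469, minus strand, GRCm38) encodes the DAZ-family protein closest to the ancestral form and is needed for sperm development in the mouse. Its level was 17.1, 16.0 and 14.7 in KO P18 testis, against 39.8, 33.0 and 26.1 in Het, a difference of -1.01 ± 0.15 (adjusted p = 0.00829). In spermatocytes it was 26.9, 25.5 and 30.2 in KO, against 56.2, 45.7 and 79.8 in Het (-1.09 ± 0.20, adjusted p = 0.00578). The genotypes did not overlap in either set. At P14 the KO libraries had 9.59, 9.88 and 12.0 and the Het libraries 14.5, 12.3 and 16.8, also without overlap (-0.45 ± 0.13, adjusted p = 0.356).

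Dazl (chromosome 17, 50279395 to 50293636, minus strand), needed for germ-cell differentiation from the embryo onwards, was the most abundant of the 10 in KO spermatocytes. It stood at 392, 358 and 396 in KO spermatocytes and at 303, 263 and 256 in Het, so every KO library lay above every Het library (0.48 ± 0.10, adjusted p = 0.00923). As deposited the difference was 0.72. In P18 testis Dazl averaged 182 ± 7.33 in KO and 173 ± 17.0 in Het, with overlapping libraries (0.08 ± 0.08, adjusted p = 0.498). At P14 it averaged 196 ± 13.0 in KO and 219 ± 25.1 in Het (-0.16 ± 0.09, adjusted p = 0.669). The spermatogonial marker sums given above were also higher in the KO spermatocyte libraries, and their part in the rise was not tested.

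All 3 Y-box genes fell at P18, and Ybx3 fell furthest. Ybx3 (chromosome 6, 131364855 to 131388476, minus strand) stood at 17.2, 22.5 and 24.5 in KO spermatocytes, against 228, 195 and 433 in Het (-3.63 ± 0.30, adjusted p = 0.000209). In P18 testis it was 33.2, 36.7 and 37.1 in KO and 249, 178 and 116 in Het (-2.26 ± 0.26, adjusted p = 0.00457). The lowest Het library was thus several times above the highest KO library in each set. At P14 Ybx3 averaged 19.8 ± 0.981 in KO and 25.4 ± 1.80 in Het (-0.35 ± 0.07, adjusted p = 0.127), and voom called this difference (adjusted p = 0.0178).

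Ybx2 (chromosome 11, 69935796 to 69941605, plus strand), whose protein is among the most abundant RNA-binding proteins of late spermatocytes and round spermatids, had the highest mean level of the 10 in Het P18 testis and Het spermatocytes. It stood at 130, 118 and 122 in KO P18 testis, against 515, 396 and 306 in Het (-1.68 ± 0.18, adjusted p = 0.0041). Its level was 135, 140 and 144 in KO spermatocytes, against 673, 525 and 1038 in Het (-2.35 ± 0.23, adjusted p = 0.000389). The KO libraries lay close together and the Het libraries spread widely in both sets. At P14 it was 26.5, 31.0 and 43.1 in KO and 66.1, 54.1 and 59.5 in Het, without overlap (-0.85 ± 0.18, adjusted p = 0.188). Without KO replicate 3 this difference passed (-1.04, adjusted p = 0.0382).

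Ybx1 (chromosome 4, 119277981 to 119294604, minus strand), the broadly expressed Y-box gene, fell too, by less. It averaged 141 ± 4.43 in KO and 272 ± 50.5 in Het P18 testis (-0.93 ± 0.13, adjusted p = 0.00714), and 159 ± 8.54 in KO and 392 ± 121 in Het spermatocytes (-1.26 ± 0.20, adjusted p = 0.00357). At P14 its averages were 102 ± 1.73 in KO and 114 ± 3.09 in Het (-0.17 ± 0.04, adjusted p = 0.286), small but without overlap between libraries. Of the 50-base stretches of Ybx1 exons 15.44% also occur in other annotated genes, mostly its processed pseudogenes, so reads may be split between them. Ybx2 and Ybx3 shared none.

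Summed over the 3 Y-box genes, the level was 320 ± 17.0 in KO and 1423 ± 513 in Het spermatocytes, and 300 ± 3.96 in KO and 858 ± 221 in Het P18 testis. Ybx3 made up 6.65% ± 0.849 of that sum in KO and 19.7% ± 1.85 in Het spermatocytes, while Ybx1 made up 49.7% ± 0.180 in KO and 27.9% ± 1.35 in Het. Ybx2 held 43.7% ± 0.918 in KO and 52.4% ± 0.790 in Het. The Y-box transcript pool of KO spermatocytes was therefore both smaller and, by share, led by the broadly expressed gene rather than by Ybx2.

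**Figure D2:**
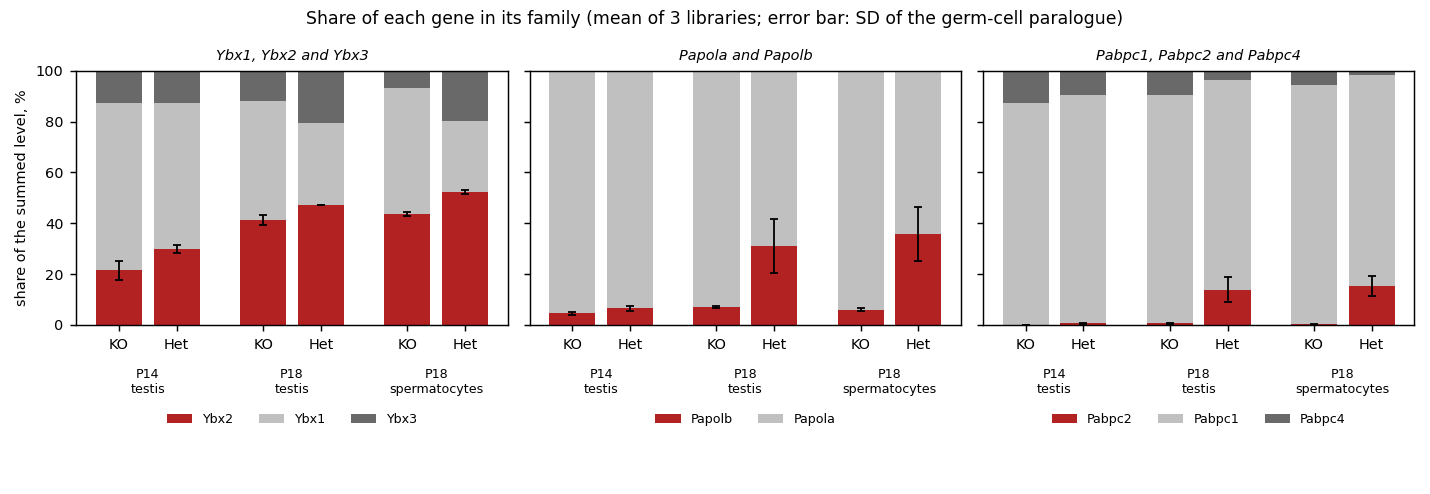
Share (%) of each gene in the summed level of its family, as the mean of 3 libraries in KO and Het groups; error bars are SDs of the germ-cell paralogue drawn at the bottom (Ybx2, Papolb or Pabpc2). At P18 Papolb held 6.02% to 7.17% of the poly(A) polymerase sum in KO and 31.0% to 35.8% in Het groups.

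Of the poly(A) polymerases, the germ-cell gene fell and the ubiquitous one did not pass. Papolb (chromosome 5, 142525838 to 142530076, minus strand) is a gene of a single exon whose cytoplasmic enzyme extends the tails of selected messenger RNAs in spermatids and is required for spermatid development in the mouse. It stood at 3.61, 3.19 and 3.31 in KO P18 testis, against 30.1, 16.5 and 11.5 in Het (-2.25 ± 0.32, adjusted p = 0.00733). In spermatocytes it was 3.46, 2.74 and 3.26 in KO, against 20.8, 18.6 and 41.5 in Het (-2.82 ± 0.29, adjusted p = 0.000493). The KO level was nearly alike in testis and in spermatocytes. At P14 Papolb had 1.71, 1.74 and 2.24 in KO and 2.94, 2.22 and 3.25 in Het, where the highest KO library just overlapped the lowest Het library (-0.46 ± 0.15, adjusted p = 0.42).

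Papola (chromosome 12, 105784694 to 105838944, plus strand) encodes the nuclear poly(A) polymerase of general 3′ end formation. Its averages were 39.7 ± 1.69 in KO and 40.0 ± 2.35 in Het P14 testis, 43.6 ± 1.16 in KO and 40.9 ± 0.513 in Het P18 testis, and 49.1 ± 1.82 in KO and 46.3 ± 5.45 in Het spermatocytes. The differences were -0.01 ± 0.06, 0.09 ± 0.05 and 0.09 ± 0.11 (adjusted p = 0.971, 0.222 and 0.557). In spermatocytes the difference passed with the values as deposited (0.33, adjusted p = 0.0239) and in 1 fit over all 18 libraries (0.25, adjusted p = 0.0153). Papola and Papolb shared 16 stretches of 50 bases, less than 1% of either gene.

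Pabpc2 showed the largest difference of the 10 genes at P18. Pabpc2 (chromosome 18, 39773497 to 39776082, plus strand) is a gene of a single exon that encodes a poly(A)-binding protein of spermatocytes and round spermatids in the mouse. It stood at 0.272, 0.599 and 0.924 in KO spermatocytes, from 9, 18 and 36 reads, against 66.4, 56.2 and 149 in Het, from 2291, 1356 and 6025 reads (-6.28 ± 0.39, adjusted p = 0.00011). It passed the filter there only through the Het libraries. In P18 testis it was 1.65, 1.18 and 1.05 in KO and 91.0, 51.3 and 28.3 in Het (-4.86 ± 0.40, adjusted p = 0.00353). At P14 it lay below the filter, with 4, 3 and 6 reads in KO and 59, 27 and 67 reads in Het libraries, levels of at most 0.123 in KO and at least 0.597 in Het. Tested without a filter, that difference was -1.36 ± 0.21 (adjusted p = 0.13). No 50-base stretch of Pabpc2 occurs in another annotated gene.

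Pabpc1 and Pabpc4, the broadly expressed paralogues, moved in opposite directions in spermatocytes. Pabpc1 (chromosome 15, 36595661 to 36609668, minus strand), the main cytoplasmic poly(A)-binding protein, averaged 235 ± 8.02 in KO and 466 ± 125 in Het spermatocytes (-0.95 ± 0.18, adjusted p = 0.00751) and 166 ± 9.37 in KO and 319 ± 55.6 in Het P18 testis (-0.93 ± 0.13, adjusted p = 0.00644). At P14 it averaged 135 ± 16.1 in KO and 158 ± 3.45 in Het (-0.23 ± 0.09, adjusted p = 0.505). Pabpc4 (chromosome 4, 123262351 to 123298925, plus strand), an inducible poly(A)-binding protein first described in activated T cells, stood at 13.1, 15.6 and 15.1 in KO spermatocytes, against 8.39, 10.4 and 7.35 in Het (0.72 ± 0.15, adjusted p = 0.00832), and every KO library was above every Het library. In P18 testis it averaged 17.7 ± 1.35 in KO and 14.1 ± 2.45 in Het (0.33 ± 0.13, adjusted p = 0.117), and this passed without Het replicate 3 (0.42, adjusted p = 0.0338). At P14 its averages were 19.3 ± 0.607 in KO and 17.0 ± 1.77 in Het (0.18 ± 0.08, adjusted p = 0.596). Of its 50-base stretches 54.84% occur in other annotated genes, 51.77% in the pseudogene Gm10110, which averaged 0.275 in KO and 0.0731 in Het spermatocytes, so its level is uncertain to that extent. For Pabpc1 the share was 9.937%.

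In the pool of the 3 poly(A)-binding protein genes, Pabpc2 held 0.236% ± 0.122 in KO and 15.3% ± 3.93 in Het spermatocytes, and 0.706% ± 0.212 in KO and 13.9% ± 4.96 in Het P18 testis. Pabpc1 held most of the pool in every group at P18, from 82.3% in Het P18 testis to 93.9% in KO spermatocytes. The summed level was 250 ± 9.04 in KO and 565 ± 172 in Het spermatocytes.

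**Figure D3:**
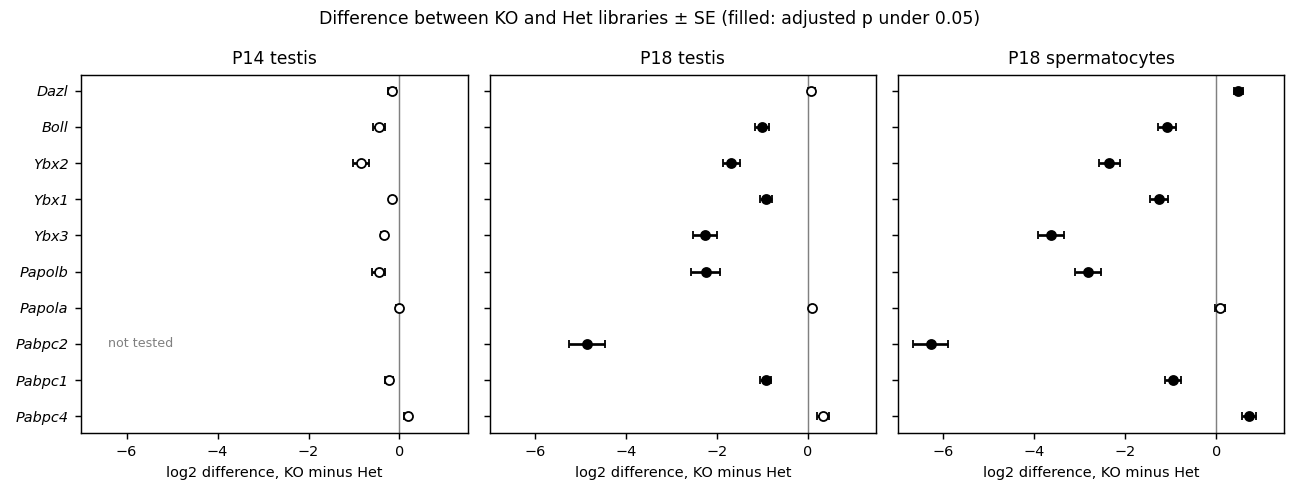
Log2 difference between KO and Het libraries (± SE, 3 libraries each) of the 10 genes in each set; filled points passed an adjusted p of 0.05 and Pabpc2 was not tested at P14. Pabpc2, Ybx3 and Papolb have the lowest differences in both P18 sets, with Papola, Dazl and Pabpc4 at or above 0.

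The germ-cell gene of each family was set against its relatives within each library, as the log2 ratio of their levels, and KO and Het were compared over the 3 sets with an exact two-sided permutation test stratified by set (8000 labelings, smallest possible p = 0.00025), adjusted over the 6 pairs. The mean ratio was lower in KO for Papolb over Papola (-1.90), for Pabpc2 over Pabpc1 (-3.47) and over Pabpc4 (-4.58), for Ybx2 over Ybx1 (-0.84) and for Boll over Dazl (-0.98), each at the smallest possible p (adjusted p = 0.0003 in the exact permutation test). For each of these 5 pairs every KO library lay below every Het library within its set. In spermatocytes Ybx2 over Ybx1 was -0.18 ± 0.03 in KO and 0.91 ± 0.06 in Het, so Ybx2 was the less abundant of the pair in KO and the more abundant in Het. Papolb over Papola was -3.77 ± 0.11 in KO and -0.86 ± 0.64 in Het spermatocytes, and -4.07 ± 0.12 in KO and -3.63 ± 0.19 in Het P14 testis.

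Ybx2 over Ybx3 behaved otherwise. It was higher in KO in spermatocytes (2.69 ± 0.21 in KO and 1.41 ± 0.15 in Het) and in P18 testis (1.77 ± 0.15 in KO and 1.20 ± 0.18 in Het), and lower in KO at P14 (0.71 ± 0.30 in KO and 1.22 ± 0.04 in Het), without overlap in any set. Over the 3 sets the mean difference was 0.45 and missed the threshold (exact permutation p = 0.054, adjusted p = 0.054). Over the P18 sets alone it was 0.93 (exact permutation test, adjusted p = 0.005). It did not pass without the spermatocyte set (0.0355, adjusted p = 0.865) or without the P18 testis set (0.387, adjusted p = 0.23, exact permutation tests). These pairs share genes and are not independent of each other. The ratios of Pabpc2 took in levels below the filter, from 3 to 6 reads in KO libraries at P14 and 9 to 36 in KO spermatocytes, so their size depended on the added 0.5: over Pabpc1 the mean was -4.23 with 0.1 added and -3.01 with 1 added, and over Pabpc4 it was -5.35 and -4.10. Without the P14 set they were -4.63 and -6.09 (exact permutation tests, adjusted p = 0.005 for both).

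**Figure D4:**
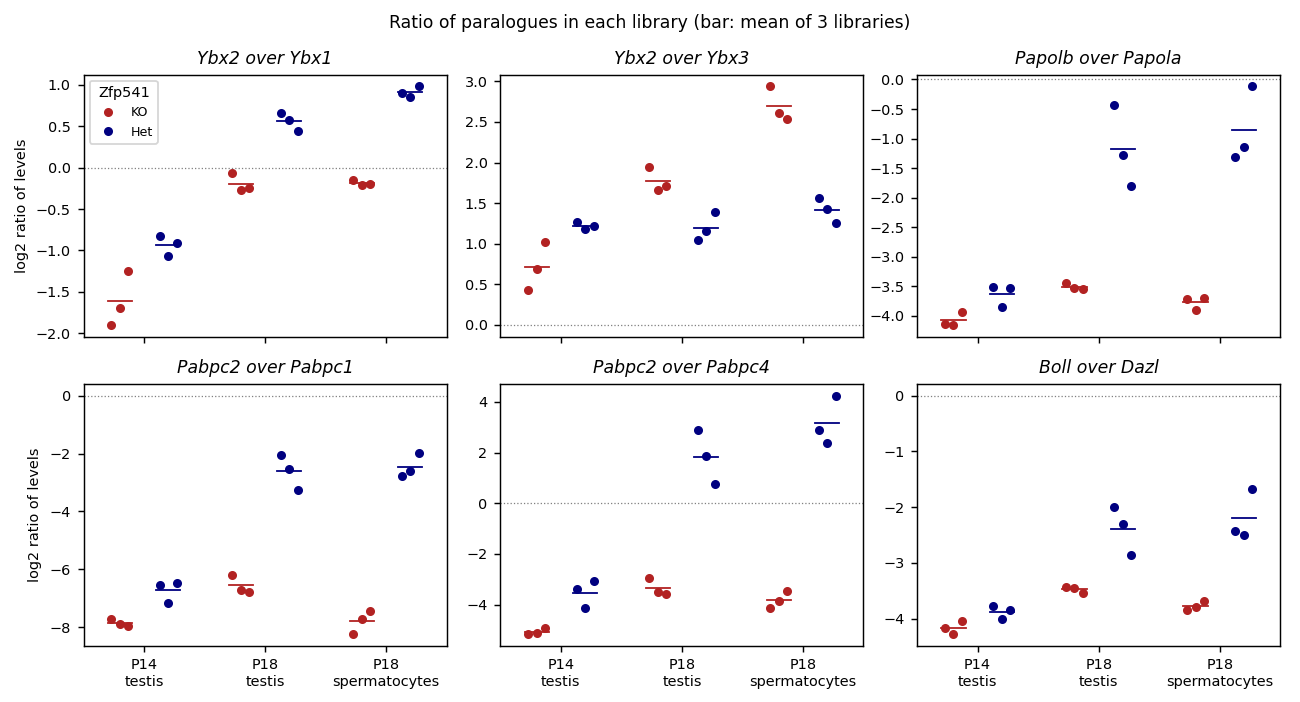
Log2 ratio of the levels of paralogues in every library (points; bars are means of 3 libraries) in KO and Het P14 testis, P18 testis and P18 spermatocytes. KO lies below Het in all 3 sets for 5 of the 6 pairs, while Ybx2 over Ybx3 is lower in KO at P14 and higher in KO in both P18 sets.

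The order of the levels changed with genotype at P18. In KO spermatocytes it ran Dazl, Pabpc1, Ybx1, Ybx2, Papola, Boll, Ybx3, Pabpc4, Papolb and Pabpc2, and none of the 9 neighbouring pairs overlapped in range. In Het spermatocytes it ran Ybx2, Pabpc1, Ybx1, Ybx3, Dazl, Pabpc2, Boll, Papola, Papolb and Pabpc4, and 6 of the 9 neighbouring pairs overlapped. In KO P18 testis 1 neighbouring pair overlapped, against 7 in Het. Pabpc2 was thus the lowest of the 10 in KO and stood above Boll, Papola, Papolb and Pabpc4 by mean level in Het spermatocytes.

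Whether the genotype difference depended on age could be tested for 8 of the genes, those with the same length behind the P14 and P18 tables. It was larger at P18 for Pabpc2 (-3.41 ± 0.51, adjusted p = 0.00696), Ybx3 (-1.94 ± 0.31, adjusted p = 0.00846), Papolb (-1.79 ± 0.40, adjusted p = 0.0305) and Ybx1 (-0.79 ± 0.16, adjusted p = 0.021), each the P18 difference minus the P14 difference; 5.54% of 16051 genes were called in this direction. At P14 Pabpc2 lay below the filter (means of 0.0855 in KO and 1.04 in Het), so the added 0.5 shrinks its P14 difference. The size of its age difference depends on that floor, and with voom it was -1.87 (adjusted p = 0.722). Ybx2 (-0.86 ± 0.28, adjusted p = 0.105) and Boll (-0.59 ± 0.23, adjusted p = 0.159) did not pass, nor did Papola (0.08) and Pabpc4 (0.12). None of the 4 calls was left without Het replicate 2 of P18 testis (adjusted p = 0.0539 to 0.0814) or with voom, and without Het replicate 3 there were 6. Of all genes called 5.92% were positive, or 19.3% with the values as deposited.

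Among Het testes, 6 of the 8 genes were higher at P18 than at P14, where 29.2% of all genes were higher and 32.8% lower. Pabpc2 averaged 56.9 at P18 and 1.04 at P14 (4.89 ± 0.36, adjusted p = 8.3e-07), Ybx3 181 and 25.4 (2.50 ± 0.22), Ybx2 406 and 59.9 (2.47 ± 0.20) and Papolb 19.4 and 2.81 (2.26 ± 0.28), each scaled within its own age. Ybx1 (0.98 ± 0.11) and Boll (0.90 ± 0.16) rose less. Pabpc4 was lower at P18 (-0.51 ± 0.11, adjusted p = 0.00213), as was Papola (-0.22 ± 0.05, adjusted p = 0.00289), whose difference was -0.01 as deposited (adjusted p = 0.857). The ages are separate tables that differ in unit, so age and table cannot be told apart. Pseudogene copies were listed at other levels: Gm10110 averaged 0.232 in Het P18 testis and 11.7 in Het P14 testis, and Ybx1-ps2 averaged 1.72 and 22.4. The part of this in the age differences of Pabpc4 and Ybx1 was not tested. Of all genes called, 47.1% were higher at P18, or 65.4% as deposited.

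Between isolated spermatocytes and whole testis of P18 Het mice, 6 of the 10 genes were higher in spermatocytes, where 27.2% of 19930 genes were higher and 31.7% lower. They were Ybx2 (0.94 ± 0.22), Boll (0.94 ± 0.19), Dazl (0.76 ± 0.10), Pabpc1 (0.62 ± 0.16), Ybx1 (0.60 ± 0.18) and Papola (0.27 ± 0.07), with adjusted p = 6.2e-05 for Dazl to 0.0165 for Ybx1. Ybx1 did not pass without Het replicate 3 of P18 testis (adjusted p = 0.0643), and Papola did not pass as deposited (0.10, adjusted p = 0.282). Pabpc4 was lower in spermatocytes (-0.57 ± 0.16, adjusted p = 0.0116). Pabpc2 (0.78 ± 0.43), Ybx3 (0.73 ± 0.30) and Papolb (0.58 ± 0.33) did not pass (adjusted p = 0.142, 0.0591 and 0.148). Without Het replicate 1 of P18 testis, in which these 3 genes were highest, all 3 passed (1.15, 0.95 and 0.91). Ybx3 also passed without Het replicate 2 of spermatocytes (0.92, adjusted p = 0.0462). Of all genes called, 46.2% were higher in spermatocytes, or 34.7% as deposited. Spermatocytes and testis are separate tables, in RPKM and in FPKM, so fraction and table cannot be told apart in this comparison.

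The genotype difference was not shown to differ between spermatocytes and P18 testis for any of the 10 genes by limma, where 1.28% of all genes were called. At an unadjusted p under 0.05 there were 4, Ybx3 (-1.40), Pabpc2 (-1.48), Ybx2 (-0.70) and Dazl (0.37), with adjusted p of 0.145 to 0.314, where 15.5% of all genes had such a p, and voom called none. The median of all genes in this comparison was -0.11, or 0.04 as deposited, and 4.69% of calls were positive, or 20% as deposited.

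Genes of the surrounding pathways moved in both directions. The 8 lists held 142 genes of poly(A), initiation and germ-cell RNA-binding factors and of transcripts stored in spermatids. Of the 142, 127 were tested in P18 testis, of which 27 fell and 12 rose, and 126 in spermatocytes, of which 26 fell and 11 rose. These shares, 21.3% lower and 9.45% higher in P18 testis and 20.6% lower and 8.73% higher in spermatocytes, lie near those of all genes given above. Of the genes that fell, 3 in each P18 set reached the filter only through the Het libraries. At P14 limma called none of 124, and 12 had an unadjusted p under 0.05, where 8.71% of all genes did.

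Among 14 further poly(A)-binding proteins and their partners, 11 were tested in each set. In spermatocytes 4 fell and 1 rose, where 25.6% of all genes fell and 9.32% rose. In P18 testis 3 fell and 2 rose, where 17% of all genes fell and 6.58% rose. Pabpc6, another poly(A)-binding protein gene, averaged 2.22 in KO and 71.6 in Het spermatocytes (-4.60 ± 0.33, adjusted p = 0.000139) and 3.03 in KO and 48.9 in Het P18 testis (-3.68 ± 0.36, adjusted p = 0.00356). Larp1, which binds the tails and caps of messenger RNAs for ribosomal proteins, fell in spermatocytes (-1.13 ± 0.21) and in P18 testis (-0.71 ± 0.10). Atxn2l, a relative of ataxin 2, also fell in both (-0.98 and -0.93), while Paip2b, an inhibitor of poly(A)-binding protein, rose (0.42 and 0.32).

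Over all genes 17% fell and 6.58% rose in P18 testis, and 25.6% fell and 9.32% rose in spermatocytes. Of 12 other poly(A) polymerases and terminal nucleotidyltransferases, 12 were tested in P18 testis and 11 in spermatocytes. Tent5b alone passed, lower in P18 testis (0.437 in KO and 2.30 in Het) and in spermatocytes (0.997 in KO and 2.33 in Het). In P18 testis it reached the filter only through the Het libraries. Tent2, the cytoplasmic poly(A) polymerase also known as Gld2, averaged 9.32 in KO and 7.58 in Het spermatocytes and did not pass. All 4 cytoplasmic polyadenylation element-binding genes were tested, and 1 fell and 1 rose in each P18 set. Cpeb2 fell (-0.65 in spermatocytes and -0.66 in P18 testis) and Cpeb1, which acts in meiotic prophase, rose (0.58 and 0.37). Of 20 cleavage and polyadenylation factors, 18 were tested in spermatocytes, where 2 fell and 0 rose, and 19 in P18 testis, where 2 fell and 1 rose. Cstf2t, the retrogene-derived relative of Cstf2 used in germ cells, fell in both sets (-0.58 in spermatocytes and -0.34 in P18 testis), as did Clp1 (-0.43 and -0.34). Cstf2 rose in P18 testis (0.29).

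All 23 deadenylase genes and adaptors were tested in both P18 sets. In spermatocytes 3 fell and 2 rose, where 25.6% of all genes fell and 9.32% rose. In P18 testis 4 fell and 2 rose, where 17% of all genes fell and 6.58% rose. Btg4, an adaptor of the CCR4-NOT deadenylase, averaged 0.315 in KO and 1.85 in Het spermatocytes and was tested there only through its Het libraries. Cnot1, the scaffold of that complex, averaged 51.5 in KO and 82.2 in Het. Parn, a poly(A)-specific ribonuclease gene, rose in spermatocytes (0.59), and Cnot6l rose in both P18 sets (0.47 in spermatocytes and 0.26 in P18 testis). Of 15 initiation factor 4 genes, 14 were tested in each P18 set, and 2 fell and 2 rose in each. Eif4e2 (-0.84 in spermatocytes and -0.46 in P18 testis) and Eif4g3 (-0.62 and -0.51) fell and Eif4ebp1, an inhibitor of cap binding, rose (0.68 and 0.39).

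Of 44 germ-cell RNA-binding regulators, 42 were tested in each P18 set. In spermatocytes 10 fell and 5 rose, where 25.6% of all genes fell and 9.32% rose. In P18 testis 13 fell and 4 rose, where 17% of all genes fell and 6.58% rose. Ddx25, the germ-cell helicase also known as GRTH, averaged 10.7 in KO and 39.5 in Het spermatocytes (-1.79 ± 0.22), and Khdrbs3, an RNA-binding protein of the STAR family, 10.1 in KO and 35.5 in Het (-1.74 ± 0.19). Nanos1 (0.60 in spermatocytes and 0.50 in P18 testis) was among those that rose, as was Igf2bp1 in spermatocytes (0.67). Of 10 transcripts stored in spermatids, Gapdhs, a sperm-specific glycolytic enzyme gene, averaged 1.89 in KO and 3.35 in Het spermatocytes (-0.68 ± 0.17, adjusted p = 0.0177) and 7.16 in KO and 6.78 in Het P18 testis, where it did not pass. Prm1 (0.538 in KO and 2.09 in Het) and Tnp2 (0.764 in KO and 2.06 in Het) reached the filter in spermatocytes only through the Het libraries, and the other 7 did not reach it.

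The genes with the most similar profiles over the 18 libraries were sought among 8444 protein-coding genes, by the root mean square difference of their centred log2 levels. For Boll they were Nup205 (0.0995), Mael (0.104) and Wdr35 (0.105), for Papolb Gramd1c (0.136) and Kif9 (0.167), and for Ybx2 Pcsk4 (0.195), Clgn (0.26) and Mroh8 (0.265). Mael, a germ-cell gene of the piRNA pathway, averaged 176 ± 2.71 in KO and 404 ± 110 in Het spermatocytes, and Gramd1c 1.63 ± 0.228 in KO and 18.8 ± 7.80 in Het. Clgn, a chaperone gene of the spermatogenic endoplasmic reticulum, averaged 31.6 ± 4.14 in KO and 178 ± 68.5 in Het. Dazl had no such list because its length differed between the tables.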

How the data were processed

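RNA of 18 libraries was analysed, 3 in each of 6 groups. Per the labels' protocols, poly(A) RNA was isolated and libraries were made with NEBNext kits; a strand setting is not given in the sources used here. The submitters' processing notes list STAR 2.6.1a, CASAVA 1.9, edgeR 3.28.1, featureCounts and the build GRCm38. Per the file headers, the authors deposited FPKM for the P18 testis libraries and RPKM for the other 12, 1 value a gene and library. Counts were not among the values used, so the planned fit on log values was kept.

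Value times exon length fell on whole multiples of 1 step for 93.7% to 94.0% of low values at P14 and 99.0% to 99.2% at P18 (within 0.02 reads), which gave the reads behind each library; lengths and coordinates came from the GRCm38 annotation. Symbols on more than 1 row (95 at P14, 107 at P18) were dropped, and RefSeq synonyms brought 798 older symbols up to date. Age comparisons used the 42246 genes with the same length in all 18 tables.

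Scaling used trimmed M-value means (trims of 30% and 5%) within the libraries of each fit. The filter kept genes that reached 1 in 3 or more libraries, and limma 3.58.1 (R 4.3.3) was run on log2(value + 0.5), with intensity trend and robust moderation, in 7 comparisons; p-values are two-sided, with Benjamini-Hochberg adjustment over all genes. The fit was tested on simulated data. Replicate numbers are not stated to mark a litter or day, so no replicate block was used in the main fits. Deviations of same-numbered libraries correlated at 0.0823 to 0.103 in P14 testis, -0.0305 to 0.0266 in P18 testis and 0.053 to 0.232 in spermatocytes, which does not settle whether they were paired. No 2 libraries of a group agreed within sampling noise. Alternatives were other pseudocounts, filters and scalings, voom, a replicate block, 1 fit over all libraries and leaving out each library. Scaling over all 18 libraries was added after seeing the data. The 10 genes, the gene lists and the tests were chosen with earlier results of these data known. Named genes were the 10, up to 2 rises and 2 falls past the threshold per list and comparison, and the 3 nearest profiles of Dazl, Boll, Ybx2 and Papolb; Tent2 was named after its values were seen, and 1 of the nearest profiles of Papolb is not reported here. Promoters were read from the RefSeq table (8 of 10 genes matched).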

Additional observations from a re-analysis of the deposited data

Results flagged for a closer look

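In 4 genes the difference between KO and Het was larger at P18 than at P14 in testis by a test of the difference itself (limma, adjusted over all genes): Ybx1 by -0.79 on the log2 scale (adjusted p = 0.021), Ybx3 by -1.94 (adjusted p = 0.00846), Papolb by -1.79 (adjusted p = 0.0305) and Pabpc2 by -3.41 (adjusted p = 0.00696). With voom Pabpc2 gave -1.87 (adjusted p = 0.722), from 3 to 6 reads in KO and 27 to 67 in Het libraries at P14. Ybx1, Ybx3 and Papolb did not pass with voom either (adjusted p = 0.054, 0.0609 and 0.17). Without Het replicate 2 of P18 testis none of the 4 passed in limma (adjusted p = 0.0539 to 0.0814). Ybx1 and Papolb also missed the threshold with the replicate block and in 1 fit over all 18 libraries.

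The log2 ratio of Ybx2 to Ybx3 moved in opposite directions between the sets: KO minus Het was 1.28 in spermatocytes, 0.58 in P18 testis and -0.51 at P14, and in each set every KO library stood on its own side of every Het library. The difference between the sets was not tested.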

How the results depend on the processing

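Of 337 values for the 10 genes between KO and Het at P18 under the alternatives, none lost its call, but 3 further values could not be had: without any 1 of the Het spermatocyte libraries Pabpc2 fell below the filter, and 6 genes in place of 7 were lower. Leaving out a KO library left the 7. At P14, 1 gene was lower with voom, and leaving out a library gave 0 to 1. In P18 testis leaving out a library gave 0 to 1 genes higher in KO. In the comparison of genotype by age the 4 genes lower became 2 in 1 fit over all 18 libraries, 2 with the replicate block and 0 with voom, and 0 to 6 without 1 library. At P18 against P14 in Het the 2 genes lower became 1 as deposited. Between spermatocytes and testis, 1 gene (Dazl, 0.59, adjusted p = 0.0242) had a higher genotype difference in 1 fit over all 18 libraries. Ybx2 over Ybx3 was 0.93 without the P14 set, and 0.48 (adjusted p = 0.0475) and 0.50 (adjusted p = 0.0288) without Het replicate 3 of P18 testis or KO replicate 1 of P14; it ran from 0.399 to 0.498 without 1 library and from 0.0355 to 0.93 without 1 set (exact permutation tests). The other 5 ratios stayed at their sign.

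Differences that changed sign were all uncalled. At P14 Papola became 0.000925 in 1 fit and with scaling over all 18 libraries, and ran from -0.0424 to 0.0346 without single libraries. In the comparison of genotype by fraction, Boll, Pabpc1 and Papola became 0.0695, 0.128 and 0.15 as deposited and 0.106, 0.169 and 0.191 in 1 fit and with scaling over all 18 libraries, and Pabpc1 and Papola 0.0362 and 0.0594 with median-of-ratios scaling. Without single libraries Boll ran from -0.211 to 0.125, Pabpc1 from -0.144 to 0.161 and Papola from -0.0636 to 0.0639. The causes were not tested. The replicate block changed no call between KO and Het within a set; between spermatocytes and testis of Het mice Pabpc2 (adjusted p = 0.0294) and Ybx3 (adjusted p = 0.0364) passed with it, and Ybx3 with median-of-ratios scaling (0.84, adjusted p = 0.042). Depth limits Pabpc2, which had 3 to 36 reads a library in KO P14 testis and KO spermatocytes.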
